A study of Mus musculus with 8 samples.

Results

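The collagen genes of the distal colon were followed across 8 mouse libraries. Members were the rows of the count table whose symbol has the form Col, number, a, number; 39 of 16130 rows had it. They were grouped as fibrillar collagens (10 rows), basement membrane collagens of type IV (5), fibril-associated collagens (8) and all others (16), the last with the filaments of type VI, the networks of types VIII and X, the transmembrane types and the anchoring fibril of type VII. The libraries came from distal colon of animals labelled Tcf4Het/+ ApcMin/+, so both groups carried the ApcMin allele, a truncating allele of the tumour suppressor Apc that causes intestinal adenomas, and were heterozygous at Tcf4. The groups were kept for 4 months in enriched housing (EE, n = 4) or in conventional, non-enriched housing (NE, n = 4). Both groups therefore share the tumour-prone genotype and the labels used here give no tumour-free control. They also do not say whether each library is a separate animal, so p-values measure the spread between these samples. The study's title names wound repair, and the comparison asks whether transcripts of the scar and scaffold proteins differ with housing.

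Collagens are trimers of chains whose repeats of glycine, X and Y wind into a triple helix. Fibrillar types I, III and V, made mainly by fibroblasts, bear the tension of the submucosa and lamina propria. Type IV forms the meshwork of basement membranes under epithelium and around vessels, muscle and nerve. Fibril-associated collagens coat or link fibrils, and type VI makes beaded filaments near basement membranes and around cells. Synthesis needs prolyl and lysyl hydroxylases and the chaperone HSP47 in the endoplasmic reticulum, and lysyl oxidases then crosslink the chains outside the cell. In wounds and around tumours fibroblasts make more of types I and III.

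RefSeq promoter windows (GRCm38.p6) were at hand for 32 of the 39 genes, some with more than 1 start, giving 35 windows. The 5 stretches below are the 150 bases before the start of the gene with the highest level per length (Col3a1), of Col5a1 and Col6a3, which like Col3a1 had their highest value in EE 3 and their lowest in EE 4, and of Col6a2 and Col4a6, which lay above the NE range in no EE library. None overlaps an annotated exon. Capitals mark GGGCGG (the GC box), CCAAT and TATAAA, each searched on both strands.
Col3a1 promoter, chr1:45311388-45311537, plus strand: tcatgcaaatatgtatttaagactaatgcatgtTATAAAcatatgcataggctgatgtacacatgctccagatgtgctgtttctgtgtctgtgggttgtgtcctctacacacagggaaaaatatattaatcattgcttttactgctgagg
Col5a1 promoter, chr2:27886275-27886424, plus strand: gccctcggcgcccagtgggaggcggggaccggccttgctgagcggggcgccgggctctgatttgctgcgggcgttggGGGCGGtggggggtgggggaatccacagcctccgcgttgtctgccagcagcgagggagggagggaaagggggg
Col6a3 promoter, chr1:90843972-90844121, minus strand: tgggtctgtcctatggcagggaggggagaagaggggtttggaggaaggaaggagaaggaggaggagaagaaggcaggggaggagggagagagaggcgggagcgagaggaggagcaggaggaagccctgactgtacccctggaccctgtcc
Col6a2 promoter, chr10:76623631-76623780, minus strand: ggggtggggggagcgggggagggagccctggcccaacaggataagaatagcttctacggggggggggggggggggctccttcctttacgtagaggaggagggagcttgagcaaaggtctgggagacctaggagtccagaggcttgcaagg
Col4a6 promoter, chrX:141474077-141474226, minus strand: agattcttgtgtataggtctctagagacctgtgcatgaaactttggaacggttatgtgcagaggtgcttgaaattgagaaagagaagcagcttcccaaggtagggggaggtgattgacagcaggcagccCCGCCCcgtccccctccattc
Of the searched motifs the printed stretches of Col6a3 and Col6a2 held none. Over 250 bases the window at this Col6a2 start held 1 GGGCGG, and that of another Col6a2 start, not printed, held 3. Col3a1 had a TATAAA and a low share of G and C in this stretch (37.3%), against 74.7% for Col5a1, 62.7% for Col6a3, 64.7% for Col6a2 and 52.0% for Col4a6. Over the 250 bases before the start, GGGCGG was found in 21 of 35 collagen windows (60%) against 32.7% of all 32851 windows, CCAAT in 37.1% against 33.8%, and TATAAA in 14.3% against 12.4%. The CArG box, the motif bound by serum response factor, was found in 1 collagen window, that of Col6a4 (2.86% against 1.47%). Several collagen genes lie side by side. Col4a1 and Col4a2 start head to head on chromosome 8 with their first exons overlapping by 22 bases, and Col4a6 and Col4a5 start head to head on the X chromosome, 1308 bases apart. These matches describe letters in a window and were not tested for binding.

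Counts over all rows summed to 6120185 to 10586851 per NE library and to 4735764 to 6266902 per EE library, and collagens took 0.239% to 0.277% of counts in NE and 0.121% to 0.372% in EE. Library EE 4 stood apart: 23 of the 33 collagens tested had their lowest value there, against 26% of all genes tested. Fitted differences of named genes are therefore given with and without it. All 8 epithelial markers, among them Epcam, Krt8 and Cdx2, were detected in every library. They are not particular to the distal colon, so they cannot check that part of the tissue label. The deposited table's own log2 fold changes had the opposite sign to EE minus NE for 97.8% of tested genes, so that table either has NE as numerator or has exchanged column names; which one cannot be told apart here, and EE and NE below mean the libraries labelled so.

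No collagen gene passed the test between housing groups. Col3a1, Col4a1 and Col4a2, the 3 with the highest levels per kilobase of all annotated exons, had higher values in EE 3 and lower values in EE 4 than in any NE library. The fourth, Col6a1, lay below every NE library in both. In edgeR's quasi-likelihood test 0 of 33 collagens passed an adjusted p of 0.05 (Benjamini-Hochberg; 0% of all 14311 genes passed), and the lowest adjusted p was 0.520, for Col8a2. At an unadjusted p under 0.05 there was 1 collagen lower in EE, Col8a2, and 0 higher, against 3.75% and 5.73% of all genes (9.48% in either direction). With limma-voom and DESeq2 0 collagens passed as well (0% and 0.106% of all genes did), with 3 and 1 at an unadjusted p under 0.05. The share of all genes at that unadjusted level was taken only in edgeR. Of the 33, 23 had a lower and 10 a higher fitted value in EE, with a median log2 fold change of −0.11 against 0.0021 over all genes tested, of which 49.7% were lower. Without EE 4 the count turned to 13 lower and 20 higher, with a median of 0.087, and 49.2% of all genes tested were then lower. EE 4 was set aside because most collagens were lowest there, so a rise on leaving it out was fixed in advance. Leaving out EE 3 instead gave a median of −0.31. In the edgeR fit without EE 4, Col6a2 was the 1 collagen lower at an unadjusted p under 0.05 and 0 were higher. Of all genes, 2.69% were lower at that level and 6.64% passed it in either direction. The 4 EE values lay below all 4 NE values in 2 of the 33, Col6a2 and Col16a1, where 2.02% of all genes do so, and above them in 0 of the 33, where 2.87% of all genes do so. In bulk tissue fewer cells of a type and less RNA per cell cannot be told apart.

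**Figure D1:**
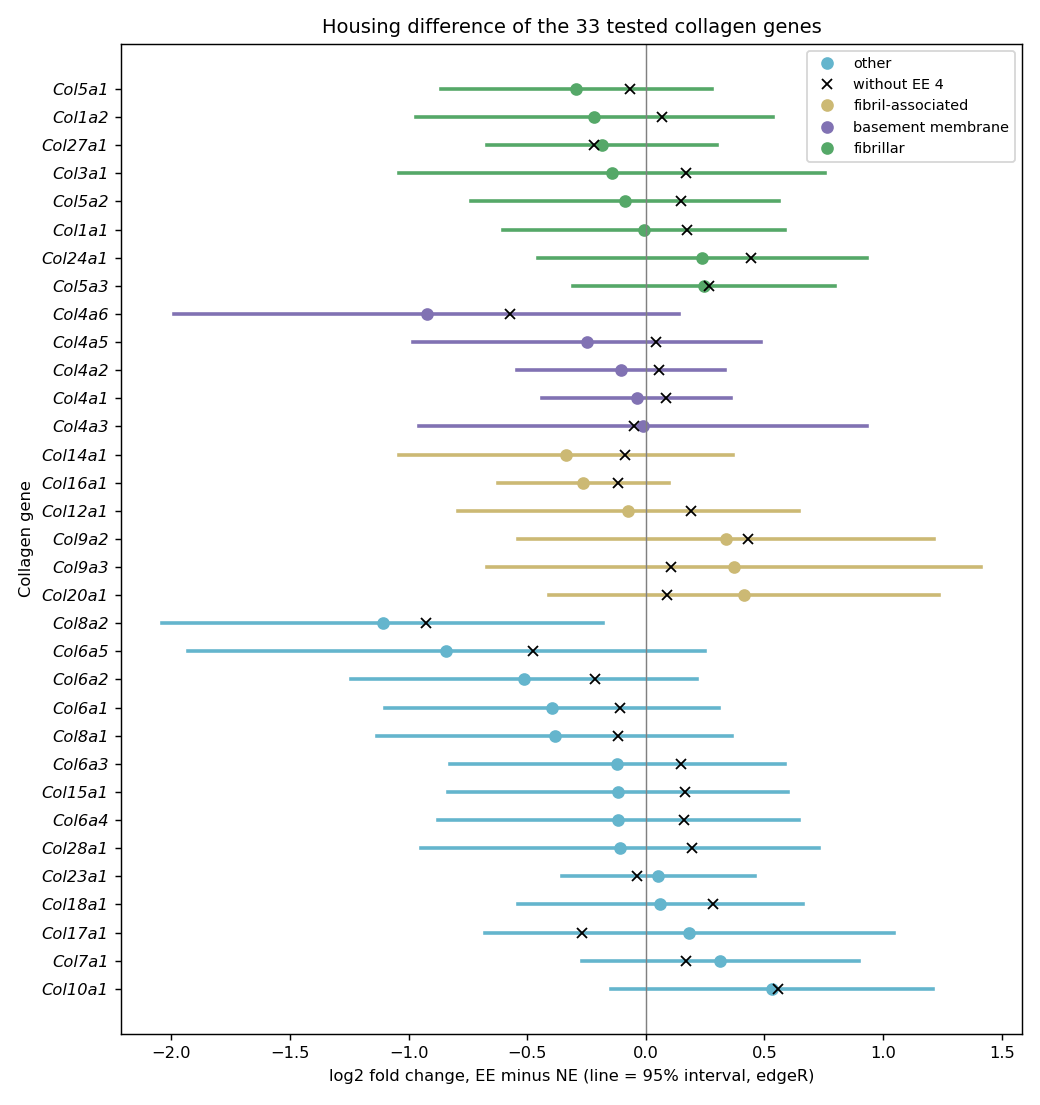
Log2 fold change (EE minus NE, x axis) of the 33 tested collagens, by class (colour); dots are the fit over 8 libraries, lines its 95% intervals and crosses the fit without EE 4. All intervals but that of Col8a2 include 0, and 14 crosses lie on the other side of 0 from their dot.

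The EE libraries lay farther from each other than the NE libraries did, for most genes and for most collagens. This difference in spread was not tested. A library that is high or low for many collagens at once enters many of the counts below, so genes are not independent here. The within-group SD of log2 CPM was larger in EE than in NE for 30 of the 33 collagens (90.9%, against 77.1% of all genes tested), with a median SD of 0.733 in EE and 0.178 in NE. Without EE 4 it was still larger in 29 of 33 (87.9%, against 65.4%), with a median SD of 0.427. Over all genes the median SDs were 0.310 and 0.196. Summed over the 39 rows, collagens stood at 2619, 2424, 2753 and 2794 CPM in NE 1 to NE 4. In EE 1 to EE 4 the sums were 2033, 2916, 3520.1 and 1159 CPM. EE 2 and EE 3 thus lay above every NE library and EE 1 and EE 4 below every one. In EE 1, 23 of the 33 tested collagens lay below every NE library (26.1% of all genes did) and 3 above (25.6%). In EE 2, 10 lay above every NE library (18.2%) and 7 below (16.8%). In EE 3, 18 lay above (29.1%) and 7 below (31%). In EE 4, 23 lay below (36.4%) and 7 above (34.5%). EE 1 was also the library with the fewest counts.

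**Figure D2:**
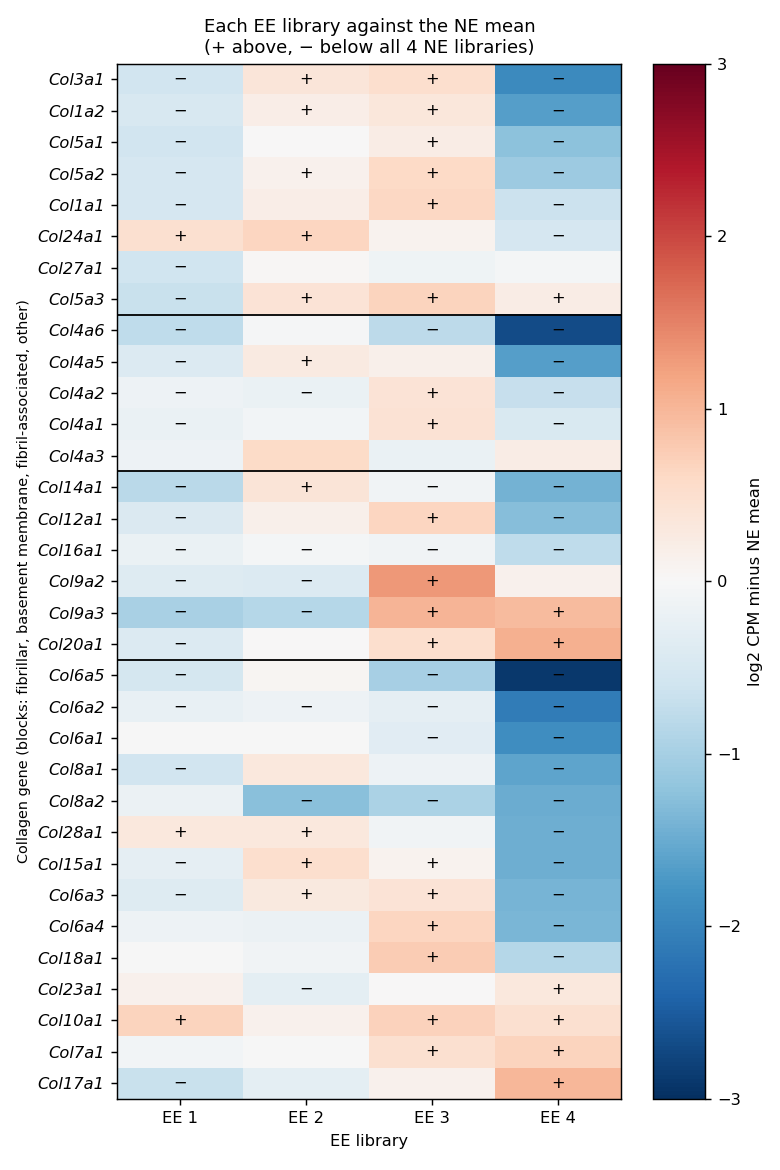
Log2 CPM of the 33 tested collagens (rows, in blocks by class) in each EE library (columns) minus the mean of the NE libraries; a plus or minus sign marks values above or below all 4 NE libraries. Minus signs fill most of the EE 1 and EE 4 columns (23 each) and plus signs most of the EE 3 column (18).

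Levels can be compared between genes only per length, here as CPM per kilobase of all annotated exons, as means over the 8 libraries. After Col3a1 (67.3) came the type IV genes Col4a1 (39.7) and Col4a2 (25.1), then Col6a1 (22.6), Col1a1 (20.6), Col1a2 (16.6), Col18a1 (13.9) and Col12a1 (13.8). Col4a1 exceeded Col4a2 in 8 of 8 libraries and Col3a1 exceeded Col4a1 in 7. Some neighbours in this order were not separated: Col4a2 exceeded Col6a1 in 4 of 8 libraries, and so did Col18a1 with Col12a1. With the longest transcript as length, Col1a2 (38.6) ranked above Col4a2 (25.7) and Col6a1 (24.1).

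Among fibrillar collagens Col3a1, the chain of type III collagen (ENSMUSG00000026043, chromosome 1, 45311538 to 45349706 on GRCm38), had the highest level per length. Scaled to the kilobases of its exons, it stood at 70.6 ± 6.14 in NE and 63.9 ± 37.8 in EE CPM per kilobase (SD, n = 4 each). It stood at 716, 604, 714 and 738 CPM in NE 1 to NE 4. EE 1 to EE 4 gave 464, 884, 978 and 184 CPM. EE 2 and EE 3 lay above the NE range and EE 1 and EE 4 below it, so the groups overlapped (log2 fold change −0.14, SE 0.40, adjusted p = 0.899; 0.17 without EE 4). Its 95% interval, −1.04 to 0.75 on the log2 scale, was wide.

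Type I collagen, the main collagen of scar, is built of 2 chains from Col1a1 and 1 from Col1a2. Col1a1 (ENSMUSG00000001506, chromosome 11, 94936224 to 94953042) stood at 113, 116, 159.8 and 154 CPM in NE 1 to NE 4, against 94.1, 154, 207 and 85.1 in EE 1 to EE 4. EE 3 was the highest of the 8 and EE 4 the lowest, and the group means were nearly equal (log2 fold change −0.0067, SE 0.27, adjusted p = 0.995; 0.17 without EE 4). Col1a2 (ENSMUSG00000029661, chromosome 6, 4504814 to 4541544) stood at 219, 195, 235 and 239 CPM in the NE libraries, against 159.7, 253, 281 and 70.1 in the EE libraries. Again EE 3 was highest and EE 4 lowest (log2 fold change −0.22, SE 0.34, adjusted p = 0.813; 0.069 without EE 4). Per kilobase the means over 8 libraries were 20.6 CPM for Col1a1 and 16.6 for Col1a2. That order depends on the gene length used: with the longest transcript in place of all exons the values were 22.8 and 38.6, and Col3a1 moved from 67.3 to 119.

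Type V collagen starts fibrils and limits their width. Its chain gene Col5a2 stood at 109.9, 100.2, 117 and 121 CPM in NE 1 to NE 4, against 78.3, 122, 169 and 52.5 in EE 1 to EE 4. Col5a1 stood at 71.0, 77.8, 75.2 and 75.9 CPM in NE, against 50.5, 75.8, 86.9 and 31.6 in EE. Both had EE 3 highest and EE 4 lowest, and neither passed the test (log2 fold change −0.087 and −0.29, and 0.15 and −0.065 without EE 4). Col5a3, the rarer chain, went against them in EE 4: it was at 19.2 CPM there, above the NE range of 14.4 to 18.5 CPM. Its log2 fold change was 0.24 (0.27 without EE 4). The minor fibrillar genes Col27a1 and Col24a1 were at 9.64 ± 1.86 CPM in NE against 8.43 ± 1.59 in EE and at 2.83 ± 0.391 CPM in NE against 3.39 ± 1.18 in EE, with log2 fold changes of −0.19 and 0.24 (−0.22 and 0.44 without EE 4). Of the 8 fibrillar genes tested, 6 were lower and 2 higher in EE (median −0.12), and without EE 4 it was 2 lower and 6 higher (median 0.16).

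**Figure D3:**
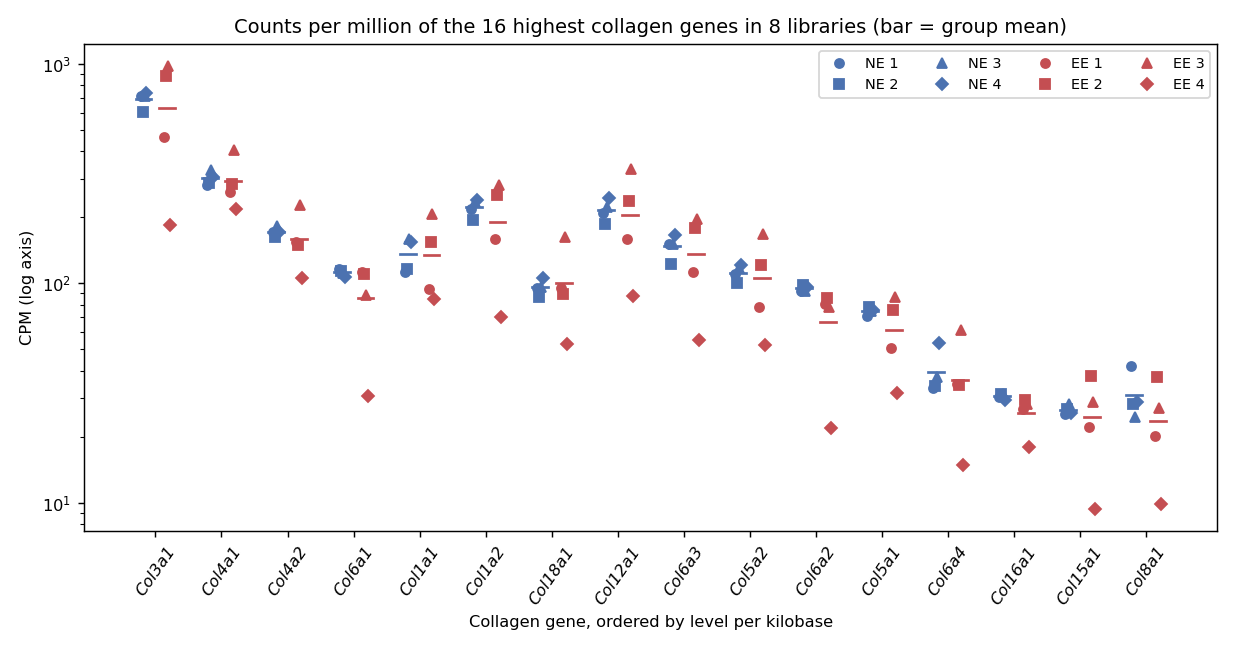
CPM on a log axis (y) of the 16 collagen genes with the highest level per kilobase (x) in NE (blue) and EE (red) libraries, 1 symbol per replicate number, with bars for group means. The NE points mostly sit close together, while EE 3 (triangles) and EE 4 (diamonds) mark the top and bottom of most columns.

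Basement membrane collagen was read mainly from Col4a1 and Col4a2, which form the type IV trimer of nearly all basement membranes. Col4a1 (ENSMUSG00000031502, chromosome 8, 11198423 to 11312826) stood at 282, 288, 328 and 305 CPM in NE 1 to NE 4, against 262, 283, 406 and 219 in EE 1 to EE 4. Col4a2 (ENSMUSG00000031503, chromosome 8, 11312805 to 11449287) stood at 171, 162, 183 and 171 CPM in NE, against 155, 149, 229 and 106 in EE. For both, EE 3 lay above and EE 4 below the other libraries (log2 fold change −0.039, SE 0.18, adjusted p = 0.940 for Col4a1; log2 fold change −0.11, SE 0.20, adjusted p = 0.843 for Col4a2), and without EE 4 the values were 0.087 and 0.057. EE 4 was closer to the rest for these 2 genes than for type III: log2 CPM in EE 4 minus the mean of the other 7 libraries was −0.47 for Col4a1 and −0.70 for Col4a2, against −1.94 for Col3a1. This did not follow class. The fibrillar gene Col1a1 was also at −0.70, and among the other type IV genes Col4a5 was at −1.64, Col4a6 at −2.45 and Col4a3 at 0.20. In EE 4 alone Col4a1 rather than Col3a1 had the highest level of all collagens per kilobase of annotated exons. With the longest transcript as length, Col3a1 and Col4a1 were nearly level in EE 4. Col4a1 made up 18.9% of collagen counts there, against 10.8% to 11.9% in NE.

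The other type IV chains had lower levels per kilobase. Col4a5 and Col4a6, neighbours on the X chromosome, encode chains of another network found around smooth muscle and other basement membranes. Col4a5 stood at 26.1, 20.9, 22.4 and 20.6 CPM in NE 1 to NE 4, against 16.8, 27.2, 24.9 and 6.98 in EE 1 to EE 4 (log2 fold change −0.25, SE 0.33, adjusted p = 0.776; 0.041 without EE 4). Col4a6 stood at 6.95, 9.89, 6.94 and 4.14 CPM in the NE libraries, against 3.82, 6.51, 3.78 and 0.793 in the EE libraries. EE 1, EE 3 and EE 4 lay below every NE library and EE 2 within their range, so the groups overlapped (log2 fold change −0.92, SE 0.48, adjusted p = 0.536; −0.57 without EE 4). The EE 4 value of Col4a6 rests on 5 counts. Col4a3, a chain of kidney and lung basement membranes, had 4 to 23 counts per library and log2 fold change −0.011 (−0.049 without EE 4). All 5 type IV genes tested had negative values (median −0.11), and without EE 4 it was 2 of 5 (median 0.041).

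Of the fibril-associated collagens Col12a1, which bridges type I fibrils and had the highest level per kilobase among them, stood at 208, 187, 222 and 244 CPM in NE 1 to NE 4, against 159.7, 238, 333 and 87.8 in EE 1 to EE 4. It followed Col3a1 in having EE 3 highest and EE 4 lowest (log2 fold change −0.073, SE 0.32, adjusted p = 0.937; 0.19 without EE 4). Col14a1, another fibril-coating collagen, stood at 23.8, 23.6, 25.1 and 22.9 CPM in NE, against 13.4, 31.4, 22.2 and 8.72 in EE (log2 fold change −0.34, SE 0.32, adjusted p = 0.685; −0.087 without EE 4). Its NE libraries were close together, with EE 2 above and the other 3 EE libraries below them. Col16a1 (ENSMUSG00000040690, chromosome 4, 130047840 to 130099283) stood at 30.5, 31.2, 31.3 and 29.5 CPM in the NE libraries, against 26.8, 29.3, 28.3 and 17.9 in the EE libraries. All 4 EE values were below all 4 NE values, EE 2 narrowly so, and the difference did not pass (log2 fold change −0.26, SE 0.16, adjusted p = 0.568; −0.12 without EE 4).

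The tested genes of type IX collagen, known from cartilage fibrils, were not low in EE 4. Col9a2 stood at 5.05, 5.45, 8.45 and 6.30 CPM in NE 1 to NE 4, against 4.67, 4.59, 15.7 and 6.82 in EE 1 to EE 4, with EE 3 well above the other 7 libraries. Col9a3 was at 3.38 to 4.64 CPM in NE, at 1.91 and 2.11 in EE 1 and EE 2, and at 8.46 and 8.09 in EE 3 and EE 4. Col20a1 was highest in EE 4, at 7.13 CPM against 2.37 to 4.48 CPM in NE. The log2 fold changes of these genes were 0.34, 0.37 and 0.41 (0.43, 0.11 and 0.088 without EE 4), and none passed. Of the 6 fibril-associated genes tested, 3 were lower and 3 higher in EE (median 0.13, and 0.098 without EE 4).

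Type VI collagen, the beaded filament, is assembled from the products of Col6a1, Col6a2 and a longer alpha 3-like chain. Col6a1 (ENSMUSG00000001119, chromosome 10, 76708792 to 76726168) stood at 117, 114, 112 and 107 CPM in NE 1 to NE 4, against 112, 111, 88.5 and 30.6 in EE 1 to EE 4. Col6a2 (ENSMUSG00000020241, chromosome 10, 76595762 to 76623630) stood at 92.5, 98.0, 92.6 and 96.6 CPM in NE, against 80.7, 85.4, 78.4 and 21.9 in EE. Every EE value of Col6a2 lay below every NE value, and EE 4 lay far below the other 3. Neither gene passed (log2 fold change −0.40, SE 0.32, adjusted p = 0.637 for Col6a1; log2 fold change −0.51, SE 0.33, adjusted p = 0.581 for Col6a2). Without EE 4 the log2 fold changes were −0.11 and −0.21, the latter with an unadjusted p of 0.0498 and an adjusted p of 0.722 in edgeR. Col6a3 (ENSMUSG00000048126, chromosome 1, 90765923 to 90843971) stood at 151, 123, 151 and 165 CPM in NE, against 113, 179, 196 and 55.3 in EE (log2 fold change −0.12, SE 0.32, adjusted p = 0.892; 0.15 without EE 4). In EE 3, then, Col6a3 lay above the NE range while Col6a1 and Col6a2 lay below it.

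The alternative long chains of type VI were split in EE 3 as well. Col6a4 was at 33.3 to 53.2 CPM in NE, highest in EE 3 (61.2 CPM) and lowest in EE 4 (14.9 CPM), with log2 fold change −0.12 (0.16 without EE 4). Col6a5 stood at 10.6, 8.46, 7.04 and 5.97 CPM in NE 1 to NE 4, against 5.31, 8.23, 3.78 and 0.793 in EE 1 to EE 4. EE 1, EE 3 and EE 4 lay below every NE library and EE 2 within their range (log2 fold change −0.84, SE 0.49, adjusted p = 0.554; −0.48 without EE 4). Its EE 4 value rests on 5 counts.

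Type VIII collagen makes hexagonal networks in vessel walls and under endothelium. Col8a2 had the smallest unadjusted p of the 33 collagens tested (0.0237). It stood at 3.79, 5.45, 6.19 and 2.15 CPM in NE 1 to NE 4, against 3.61, 1.53, 1.96 and 1.27 in EE 1 to EE 4. EE 1 lay within the NE range and the other 3 EE libraries below it (log2 fold change −1.11, SE 0.42, adjusted p = 0.520; −0.93 without EE 4, unadjusted p = 0.0572 by edgeR). These values rest on 8 to 66 counts per library. Its partner Col8a1 was at 30.9 ± 7.55 CPM in NE against 23.6 ± 11.6 in EE (SD, n = 4 each; log2 fold change −0.38, and −0.12 without EE 4). Col10a1, the related network collagen of growth cartilage, stood at 2.53, 2.87, 1.50 and 3.15 CPM in NE, against 4.03, 2.68, 4.08 and 3.49 in EE. It had the largest positive log2 fold change of the 33 collagens tested (log2 fold change 0.53, SE 0.31, adjusted p = 0.554; 0.56 without EE 4), on 14 to 27 counts per library, and the groups overlapped.

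Col18a1, whose product sits in basement membranes and releases the fragment endostatin, stood at 94.9, 86.7, 96.4 and 105 CPM in NE 1 to NE 4, against 95.1, 89.2, 162 and 53.0 in EE 1 to EE 4. EE 3 was far above the other libraries and EE 4 the lowest (log2 fold change 0.061, SE 0.27, adjusted p = 0.937; 0.28 without EE 4). Col15a1, its relative, was at 26.5 ± 1.32 CPM in NE against 24.5 ± 12.0 in EE (log2 fold change −0.12, and 0.16 without EE 4). Collagens of epithelial adhesion were not low in EE 4, a trait not particular to them. It held for 10 tested collagens, with members in every class and levels per kilobase far below that of Col3a1. Col17a1, a transmembrane component of hemidesmosomes, was at 6.02 CPM in EE 4 against 2.15 to 3.47 CPM in NE. Col7a1, the anchoring fibril, was at 6.98 CPM in EE 4 against 3.47 to 4.97 CPM in NE. The transmembrane collagen Col23a1 was at 15.5 CPM in EE 4, above the NE range of 10.3 to 14.1 CPM. Over both groups their log2 fold changes were 0.18, 0.31 and 0.053, and −0.27, 0.17 and −0.038 without EE 4. Col28a1 was at 4.07 ± 0.418 CPM in NE against 3.83 ± 1.82 in EE (log2 fold change −0.11, and 0.19 without EE 4). Of the 14 genes tested in this group, 9 were lower and 5 higher in EE (median −0.12), and without EE 4 it was 7 and 7 (median 0.056).

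The remaining 6 collagen rows were too low for the test: Col13a1, Col11a2, Col9a1, Col22a1, Col25a1 and Col11a1, each with a mean of at most 1.63 CPM in either group. Col11a1, a fibrillar chain, had 9, 13, 14 and 7 counts in NE 1 to NE 4 and 3, 5, 4 and 0 in EE 1 to EE 4. The 0 in EE 4 allows up to 0.476 CPM (3 counts; counting error only). Col25a1, a transmembrane collagen of neurons, had 9, 10, 18 and 12 counts in NE and 3, 5, 3 and 4 in EE. In both genes every EE value lay below every NE value. With Col6a2 and Col16a1 this made 4 of the 39 collagen rows, where 2.19% of all 16130 rows did so. The separations of Col11a1 and Col25a1 rest on 0 to 5 counts per EE library. Among the tested collagens it was 2 of 33, where 2.02% of all genes tested did so. With no filter on low counts edgeR gave Col11a1 a log2 fold change of −1.40 (SE 0.59, unadjusted p = 0.0388) and Col25a1 one of −1.28 (SE 0.38, unadjusted p = 0.00648), and the adjusted p was 0.514 for both. The listed genes Col2a1, Col4a4, Col6a6, Col19a1, Col21a1 and Col26a1 were not analysed here.

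Chains that share a trimer or a fibril were compared as ratios within each library, which do not depend on library scaling. None of 7 ratios passed two-sided exact permutation tests (smallest p 0.0857, for Col5a2 to Col5a1). Adjusted over the 7, p ran from 0.367 to 0.457. The smallest possible p was 0.0286, so a single ratio could not pass after adjustment, however far apart its groups. The log2 ratio of Col4a2 to Col4a1 counts was the tightest, at −0.72, −0.83, −0.84 and −0.83 in NE 1 to NE 4 and −0.76, −0.92, −0.83 and −1.04 in EE 1 to EE 4. The ratio of Col1a2 to Col1a1 was 0.96, 0.74, 0.56 and 0.63 in NE and 0.76, 0.72, 0.44 and −0.28 in EE, so only in EE 4 did Col1a1 have more counts than Col1a2. Col3a1 to Col1a1 was also lowest in EE 4, at 1.11 against 2.16 to 2.67 in NE. For these 2 ratios the EE minus NE differences, −0.31 and −0.32, were −0.083 and −0.012 without EE 4. The ratio of Col6a3 to Col6a1 ran from 0.10 to 0.63 in NE and was 0.0027, 0.69, 1.14 and 0.85 in EE, its highest in EE 3. Col6a2 to Col6a1 stayed within −0.48 and −0.15 over the 8 libraries. Col4a6 to Col4a5 was −1.90, −1.08, −1.68 and −2.29 in NE and −2.10, −2.05, −2.70 and −3.02 in EE (difference −0.73, exact permutation p = 0.114, adjusted p = 0.367; −0.55 without EE 4).

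**Figure D4:**
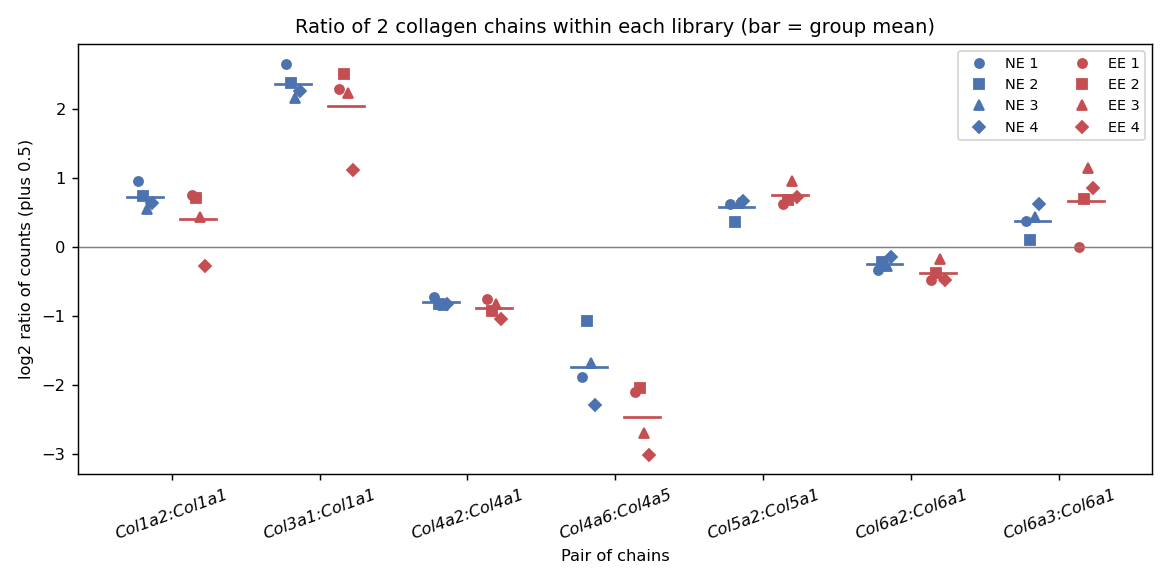
Log2 ratio of counts (y) of 7 pairs of collagen chains (x) in NE (blue) and EE (red) libraries, 1 symbol per replicate number, with bars for group means. Col4a2 to Col4a1 and Col6a2 to Col6a1 vary little, and EE 4 (red diamond) lies apart for Col1a2 to Col1a1 and Col3a1 to Col1a1, at −0.28 and 1.11.

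Genes that make, crosslink and bind collagen had 0 members past the threshold. Of 23 synthesis genes tested, 16 were lower and 7 higher in EE (median log2 fold change −0.11, and 0.043 without EE 4). P3h2, a prolyl 3-hydroxylase of basement membrane collagen, was at 4.90 ± 0.918 CPM in NE against 2.44 ± 1.55 in EE (log2 fold change −1.05, SE 0.45, adjusted p = 0.520; −0.72 without EE 4), and the lysyl hydroxylase gene Plod3 at 28.8 ± 3.58 CPM in NE against 36.8 ± 7.10 in EE (log2 fold change 0.35, SE 0.17, adjusted p = 0.520; 0.30 without EE 4). Of 5 crosslinking genes, 3 were lower and 2 higher (median −0.17, and 0.054 without EE 4). The lysyl oxidase relatives Loxl3 and Loxl1 were at 4.70 ± 0.450 CPM in NE against 3.42 ± 1.12 in EE and at 11.8 ± 0.731 CPM in NE against 7.30 ± 4.93 in EE, with log2 fold changes of −0.47 and −0.69 (−0.23 and −0.31 without EE 4). Of 12 regulators of fibril assembly, 10 were lower and 2 higher (median −0.44, and −0.21 without EE 4). Prelp, a proteoglycan that anchors basement membranes to collagen, was at 24.5 ± 2.18 CPM in NE against 18.3 ± 1.94 in EE (log2 fold change −0.42, SE 0.14, adjusted p = 0.520; −0.35 without EE 4), and osteoglycin (Ogn) at 82.4 ± 12.2 CPM in NE against 45.5 ± 27.0 in EE (log2 fold change −0.87, and −0.52 without EE 4). Among 8 collagen receptors 5 were lower and 3 higher (median −0.26, and 0.025 without EE 4). Itga1, an integrin subunit for types I and IV, was at 97.5 ± 5.01 CPM in NE against 73.9 ± 24.3 in EE, and the receptor kinase gene Ddr2 at 50.5 ± 5.60 CPM in NE against 31.3 ± 17.9 in EE, with log2 fold changes of −0.40 and −0.70 (−0.18 and −0.36 without EE 4). Of 5 collagen-degrading metalloproteinases 4 were higher and 1 lower (median 0.35, and 0.39 without EE 4): Mmp13 was at 107 ± 35.1 CPM in NE against 175 ± 82.7 in EE (log2 fold change 0.72, SE 0.38, adjusted p = 0.537; 0.76 without EE 4) and Mmp14 at 134 ± 12.7 CPM in NE against 172 ± 59.7 in EE (log2 fold change 0.35, and 0.17 without EE 4).

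Cell type markers were read in the same libraries, and 0 passed the threshold. Dcn and Lum are in both the fibroblast list and that of fibril regulators. All 9 fibroblast markers had lower fitted values in EE (median −0.43, and −0.17 without EE 4), and their summed level ran 912 to 1069 CPM in NE against 344 to 1028 in EE. In EE 4 the sum was the lowest, and Clec3b had 0 counts there. All 10 smooth muscle markers were lower (median −0.78, and −0.45 without EE 4), with sums of 3552 to 5727 CPM in NE against 688 to 4444 in EE. EE 4 and EE 3 were the lowest libraries for muscle, at 688 and 2339 CPM. The 8 pericyte markers were all lower as well (median −0.47, and −0.21 without EE 4; sums of 511 to 705 CPM in NE against 92.3 to 519 in EE), and so were 7 of 8 blood endothelial markers (median −0.34, and −0.10 without EE 4; sums of 180.0 to 199 CPM in NE against 90.2 to 192 in EE). Enteric glia markers were lower in 5 of 5 tested (median −1.02, and −0.69 without EE 4; sums of 15.9 to 27.9 CPM in NE against 5.07 to 18.8 in EE). All 4 tested fat cell markers were lower (median −0.53, and −0.14 without EE 4; sums of 25.6 to 76.5 CPM in NE against 7.93 to 58.8 in EE). Adipoq, Plin1 and Lep had 0 counts in EE 4, but Lep, too low for the test, also had 0 in NE 1 and EE 1. In NE, Adipoq ran from 1.74 to 16.2 CPM and Plin1 from 0.474 to 5.16 CPM. Of 8 markers of subepithelial myofibroblasts and telocytes, 5 were higher and 3 lower (median 0.25, and 0.22 without EE 4; sums of 253 to 271 CPM in NE against 255 to 336 in EE). F3 alone, at 132 ± 15.3 CPM in NE and 152 ± 19.8 in EE, made up much of these sums. In EE 4, 5 of the 8 were lower than in the mean of the other 7 libraries. Foxf1, Bmp5 and Wnt5a were the lowest of them, at log2 differences of −2.33, −2.03 and −1.34. Of 8 epithelial markers, 6 were lower and 2 higher (median −0.13, and −0.086 without EE 4; sums of 8340.0 to 11279 CPM in NE against 7175 to 11072 in EE). The part of cell makeup in the collagen values was not tested.

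Relative to the mean of the 8 libraries, the median of the 33 tested collagens in EE 3 was 0.35 on the log2 scale. By class it was 0.57 for fibrillar, 0.36 for basement membrane, 0.55 for fibril-associated and 0.099 for other collagens, and −0.49 for smooth muscle markers. Fibroblast markers were at −0.023 there and enteric glia at −0.94. In EE 4 the median of the 33 was −0.98. The medians were −0.79 for fibrillar, −0.61 for basement membrane, −0.28 for fibril-associated and −1.25 for other collagens, against −2.02 for fibroblast and −2.33 for smooth muscle markers. In EE 1 they were −0.21 for the 33 collagens, −0.39 for fibrillar, −0.20 for basement membrane, −0.52 for fibril-associated and 0.013 for other collagens, −0.11 for fibroblast and 0.30 for smooth muscle markers.

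**Figure D5:**
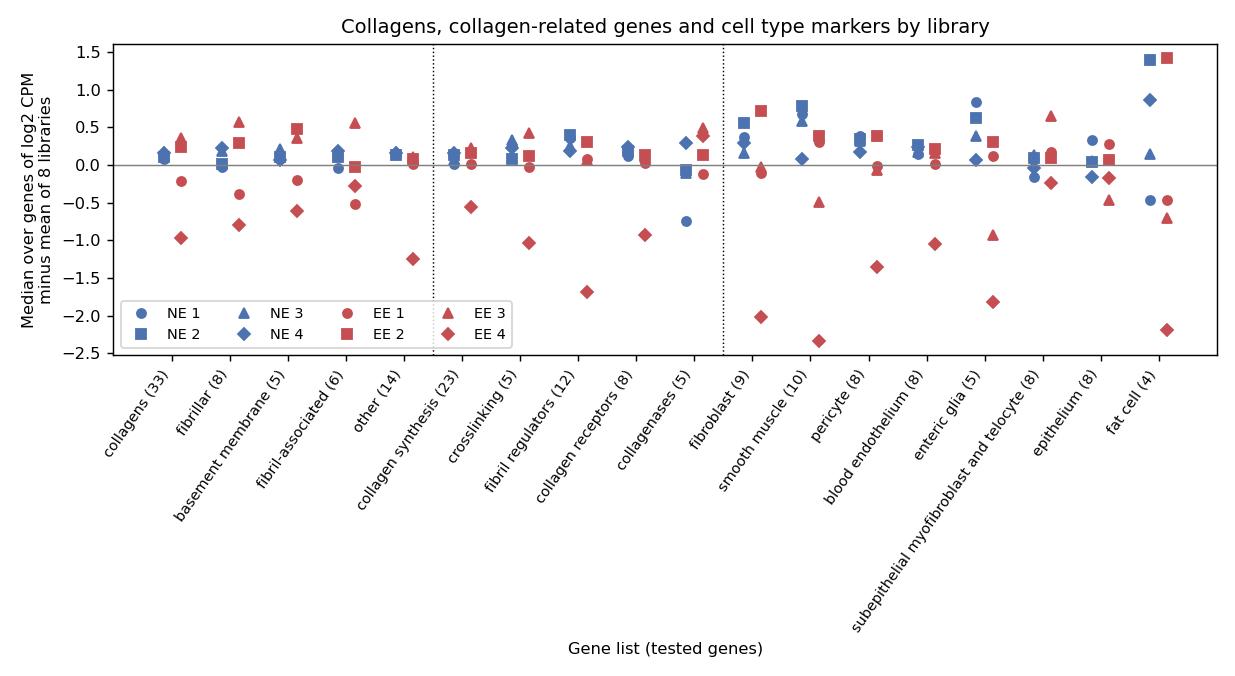
Median over genes of log2 CPM minus the 8-library mean (y) for collagens, collagen-related genes and cell type markers (x, number of tested genes in brackets) in NE (blue) and EE (red) libraries. EE 4 (red diamond) is the lowest library for most mesenchymal lists, and EE 3 (red triangle) is high for fibrillar collagens (0.57) and low for smooth muscle (−0.49).

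In the authors' deposited results 0 of the 39 collagens had an FDR under 0.05, where 2.39% of its 16130 rows did. The lowest was 0.174 for Col6a2, with a log2 fold change of 0.61 in the authors' deposited table, followed by Col8a2 (0.191), Col4a6 (0.196) and Col6a5 (0.230). Of the 39, 27 had a positive and 12 a negative value in the authors' deposited table, which is the sign of higher NE columns. Those 4 genes were also among the 6 with the smallest p in edgeR, from the same counts.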

How the data were processed

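Ribosomal RNA-depleted total RNA was sequenced as strand-preserving single-end reads of 50 bases, per the labels' protocols. Novoalign 2.08.01, DESeq 1.14.0 and build mm10 are named by the submitters' processing notes. The annotation, counter and strand setting are not stated in them, so overlapping and antisense genes may share reads. The authors deposited raw counts per gene for 8 libraries, with their own log2 fold change and FDR (an adjusted p-value) for each gene, per the file headers. The smallest row total is 12 counts.

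The deposited counts were tested with edgeR 4.0.16 under R 4.3.3: filterByExpr (14311 genes kept), TMM, the robust quasi-likelihood test without covariates, and Benjamini-Hochberg adjustment over all genes tested. CPM are TMM-scaled; log2 CPM used a prior count of 2. SEs are the size of the log2 fold change over the root of the quasi-likelihood F, and intervals are 95%. Lengths and coordinates are from GENCODE M21 (GRCm38, the same build as mm10). Chain ratios used counts plus 0.5. No pair of libraries was a duplicate (chi-square per degree of freedom at least 7.67).

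Alternatives were DESeq2 1.42.0, limma-voom (limma 3.58.1), RLE and upper-quartile scaling, other filters, a replicate block, a threshold of 0.1, each library left out, a pseudocount of 2 and the longest transcript. The tests were checked on simulated counts. Values in every library are given for the 4 highest collagens per kilobase in each class, the 6 with the smallest p and the chains in ratios, and in each related list the 2 genes with the smallest p are named. Further members were named after their values were seen. Members and lists were chosen with earlier results of these data known.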

Additional observations from a re-analysis of the deposited data

Results flagged for a closer look

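Dixon's test for a sample far from the others in its group was applied to 92 groups of 4 values (39 genes and 7 ratios in each housing group) and marked 3, where chance alone marks about 1 in 20. Col6a2 in EE 4 was at 21.9 CPM, against 78.4 to 85.4 CPM in the other EE libraries. The log2 ratio of Col4a2 to Col4a1 in NE 1 was −0.72, against −0.84 to −0.83 in the other NE libraries. The log2 ratio of Col5a2 to Col5a1 in NE 2 was 0.36, against 0.63 to 0.67 in the others. Depth in these libraries was 6070240, 6600039 and 7087191 counts.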

How the results depend on the processing

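No collagen passed an adjusted p of 0.05 under any alternative run, or 0.1 in edgeR. Over all genes the count called was 0, 14 with DESeq2, and 0 to 1 when a library was left out (1 without EE 2). Collagens at an unadjusted p under 0.05 numbered 1 (Col8a2) and 3 with limma-voom or with the replicate number as a block (Col8a2, Col4a6 and Col6a5), 3 with no filter and 3 with at least 1 CPM in 4 libraries (Col8a2, Col11a1 and Col25a1; under the last filter Col11a1 and Col25a1 were kept only through the NE libraries, so their low p there supports nothing), and 0 to 3 when a library was left out (0 without NE 2 or NE 3; 2 without EE 1 or EE 3, and 3 without EE 2). Beside these counts, the share of all genes was taken only for the main edgeR fit (9.48%) and for the fit without EE 4 (6.64%). Under the other settings the counts have no such share to be read against. The median log2 fold change over the collagens passing the filter each time ran from −0.31 without EE 3 to 0.078 without EE 4, and was −0.23 with limma-voom and −0.21 with the block. Scaling by RLE or upper quartile kept the direction of all tested collagens. Of 495 single-gene values under alternatives, 461 kept their direction and 34 did not, 14 of these without EE 4. Col4a3 was 0.0037 with DESeq2, 0.099 with limma-voom and 0.055 with the block, and Col18a1 −0.047 with limma-voom and −0.039 with the block. Over the left-out libraries the log2 fold changes that changed sign ran as follows: Col12a1 −0.41 to 0.19, Col15a1 −0.40 to 0.16, Col17a1 −0.27 to 0.39, Col18a1 −0.27 to 0.28, Col1a1 −0.28 to 0.17, Col1a2 −0.46 to 0.069, Col23a1 −0.038 to 0.15, Col28a1 −0.29 to 0.19, Col3a1 −0.44 to 0.17, Col4a1 −0.23 to 0.087, Col4a2 −0.33 to 0.057, Col4a3 −0.25 to 0.24, Col4a5 −0.47 to 0.041, Col5a2 −0.41 to 0.15, Col6a3 −0.35 to 0.15, Col6a4 −0.50 to 0.16 and Col9a2 −0.22 to 0.53. All 7 chain ratios kept their direction and missed the threshold under every alternative run. For sign flips of same-numbered pairs the miss was fixed in advance, as the smallest possible p is 0.125. With a library left out or a pseudocount of 2, a single ratio could not pass after adjustment either. Missing the threshold under these runs therefore shows nothing further. The cause of these shifts was not tested. Deviations of same-numbered libraries from their group means correlated weakly (r −0.18 to 0.254, the highest for NE 1 with EE 1). These values cannot settle whether the numbers pair the libraries. Counts down to 4 or 5 per library limit Col4a3, Col4a6 and Col6a5.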

Other observations

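Over the 33 collagens tested, the 23 that were lower in EE 4 than in the mean of the other 7 libraries had a median transcript G and C content of 54.5% (range 46.8% to 61.4%), and the 10 that were not lower had 58.1% (50.4% to 62.7%). The 17 collagens that were at least 1 log2 unit lower in EE 4 had a median of 53.6%. These are values over genes of the longest annotated transcript, and their part in the EE 4 values was not tested. The 10 were Col5a3, Col27a1, Col4a3, Col9a2, Col9a3, Col20a1, Col23a1, Col10a1, Col17a1 and Col7a1, and the highest of them per kilobase, Col5a3, had a mean of 2.64 CPM per kilobase against 67.3 for Col3a1.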
